A study of Mus musculus with 8 samples.

Results

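Type 2 immunity in the stromal vascular fraction (SVF) of gonadal WAT was described through 10 genes, taken by gene name from a table of counts for 54532 genes: Il33, Il1rl1, Gata3, Il5, Il13, Il4ra, Areg, Siglecf, Il5ra and Arg1. All 10 were found, and all 10 passed the filter on low counts that 15963 genes of the table passed. The libraries came from 8 male C57BL/6J mice with no engineered allele named in the labels, each mouse giving 1 library. The sources differ on age: the text of the series gives 6 weeks at the start of the high-fat diet. The methods of the study name mice obtained at 8 or 16 weeks of age. Every mouse had been fed a diet deriving 60% of its calories from fat (HFD) over 12 weeks, and was then changed to chow with 16% of calories from fat. From that change on, 4 mice (mice 1, 2, 6 and 9) were injected with an isotype control Ab and 4 mice (mice 5, 7, 8 and 10) with the anti-BAFF Ab Sandy-2, which neutralizes BAFF, the survival factor of mature B cells. Both antibodies were dosed at 2 mg/kg at intervals of 2 weeks over 6 weeks, so that tissue was taken at week 18. The groups had been formed from a glucose tolerance test before the first injection, and the SVF was what remained of a collagenase-digested fat pad after the floating adipocytes and the red blood cells were removed. No lean mice and no mice kept on HFD were analysed here.

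IL-33 is an alarmin that stromal cells of adipose tissue store in the nucleus and release when they are damaged. Its receptor chain ST2, encoded by Il1rl1, is carried by group 2 innate lymphoid cells (ILC2s), by regulatory T cells of adipose tissue and by mast cells. ILC2s depend on the transcription factor GATA3 and answer IL-33 with IL-5, the survival factor of eosinophils, and with IL-13, which together with IL-4 acts through the shared receptor chain IL-4Rα on macrophages. Amphiregulin (Areg) is an EGF receptor ligand of tissue repair that ILC2s, regulatory T cells and epithelial cells can make. Siglec-F and the IL-5 receptor α chain (Il5ra) mark eosinophils, with Il5ra also present on B1 cells, and arginase 1 (Arg1) is a classical product of macrophages that have seen IL-4 or IL-13. In lean fat this circuit is known for keeping eosinophils and alternatively activated macrophages in place.

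Depth lay between 13562340 and 18548024 counts per library, which overlapped between the groups, and 3 counts in a library were worth 0.165 to 0.219 CPM (counts scaled to the size of the library). Some libraries stood apart. The neutrophil markers summed to 168 CPM in anti-BAFF Ab mouse 5 and to between 28.7 and 42.9 CPM in the other 7 mice. Genes of the epididymis, the organ next to this fat pad, summed to 1803 CPM in control Ab mouse 2 and to 1793 CPM in anti-BAFF Ab mouse 7, and to between 15.2 and 690 CPM elsewhere. Control Ab mouse 1 differed most from its group over all genes (chi-square per degree of freedom 59.6 to 77.0 against the other controls, and 7.65 to 25.0 among those), and it was the lowest of the 8 in the summed progenitor, mesothelial, endothelial and immediate early genes. The 5 B cell markers summed to 36.3 ± 2.65 CPM (SD, n = 4) in control Ab-treated mice and to 14.4 ± 5.83 CPM (SD, n = 4) in anti-BAFF Ab-treated mice, with no overlap. The 10 mast cell markers summed to 941 ± 246 CPM with control Ab and to 1325 ± 267 CPM with anti-BAFF Ab, with overlap. Several defining markers of eosinophils and ILC2s were at or near the floor. The eosinophil granule genes Epx and Ear6 had 0 counts in every mouse, which allows up to 0.219 CPM, and of the ILC2 receptors Ptgdr2 had 1 to 5 counts and Nmur1 0 to 3 counts per mouse. The eosinophil receptor Ccr3, with 44 to 90 counts, and the eosinophil granule gene Prg2, with 8 to 20 counts, were measured at low levels.

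The members for which the start of the gene bears on what follows are Il5 and Il13, whose levels are set against each other, and Il1rl1, which has several starts. GATA factors bind DNA at the letters GATA with a preferred base on either side, so the 250 bases before each RefSeq gene start (GRCm38.p6, the assembly also called mm10) were searched for the letters AGATAA or AGATAG, with the variant TGATAA or its partner TGATAG, and on the other strand for their reverse complements TTATCT or CTATCT and also TTATCA or CTATCA. Among 32851 such windows of the genome 26.5% held at least 1 of these letters. The table of gene starts had 11 entries for 9 of the 10 genes, and 5 of the 11 held at least 1. The windows of Il5, Il13 and the 2 entries of Il1rl1 are printed 5′ to 3′ along the gene, ending at the base before the start, with the searched letters in capitals.
Il5, chr11:53720544-53720793, plus strand: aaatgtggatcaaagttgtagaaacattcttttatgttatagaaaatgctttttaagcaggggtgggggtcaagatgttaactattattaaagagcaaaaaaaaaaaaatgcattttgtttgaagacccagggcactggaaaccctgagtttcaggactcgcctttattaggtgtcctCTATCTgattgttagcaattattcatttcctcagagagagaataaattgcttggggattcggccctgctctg
Il13, chr11:53634703-53634952, minus strand: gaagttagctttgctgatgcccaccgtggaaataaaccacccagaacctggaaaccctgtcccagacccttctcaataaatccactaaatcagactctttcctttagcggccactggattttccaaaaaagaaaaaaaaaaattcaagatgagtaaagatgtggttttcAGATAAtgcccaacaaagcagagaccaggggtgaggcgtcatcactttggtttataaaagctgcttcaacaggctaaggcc
Il1rl1, upstream start, chr1:40429320-40429569, plus strand: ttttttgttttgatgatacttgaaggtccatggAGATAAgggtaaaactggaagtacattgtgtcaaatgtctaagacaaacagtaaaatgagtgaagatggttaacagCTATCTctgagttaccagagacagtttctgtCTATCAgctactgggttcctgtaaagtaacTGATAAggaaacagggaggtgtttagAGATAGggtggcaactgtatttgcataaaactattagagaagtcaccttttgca
Il1rl1, downstream start, chr1:40439379-40439628, plus strand: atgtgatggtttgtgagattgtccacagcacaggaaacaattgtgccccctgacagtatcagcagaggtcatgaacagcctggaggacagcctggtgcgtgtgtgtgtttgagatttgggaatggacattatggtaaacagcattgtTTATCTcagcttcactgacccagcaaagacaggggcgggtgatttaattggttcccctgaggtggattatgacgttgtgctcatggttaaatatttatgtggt
The Il5 window held 1 match, 72 bases before the start, and the Il13 window held 1 match, 81 bases before the start. The upstream window of Il1rl1 held 5 matches, a number that 0.0426% of all windows reached, while its downstream window held 1. The upstream start of Il1rl1 is known to be used by mast cells and other blood cells and the downstream start by fibroblasts, and counts per gene do not tell them apart. The Il5ra window held 1 match, and the windows of Il33, Gata3, Il4ra, Areg and Siglecf held none of these letters. A match in these letters is a description and no evidence of binding.

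Between genes, levels were compared as FPKM, which scales counts by depth and gene length, averaged over the 8 mice. Il4ra was the highest at 39.5 FPKM, followed by Il33 at 18.1, Areg at 17.4, Il1rl1 at 11 and Arg1 at 8.54 FPKM. Il13 at 3.10, Gata3 at 2.69, Il5 at 2.29, Siglecf at 1.02 and Il5ra at 0.289 FPKM came after them. The place of Arg1 rests on a single mouse, since its median was 1.42 FPKM. Il4ra was above Il33 in 8 of 8 mice and Siglecf above Il5ra in 8 of 8 mice, each with ranges that did not overlap. The other neighbours in this order did not separate: Il33 exceeded Areg in 4 of 8 mice, Il13 exceeded Gata3 in 5 of 8 and Gata3 exceeded Il5 in 5 of 8. The members differed more in their spread. The coefficient of variation of CPM over the 8 mice was 12.0% for Siglecf, 15.5% for Il4ra, 17.9% for Il33 and 18.3% for Il1rl1. It was 27.8% for Gata3, 40.5% for Il5ra, 50.6% for Il13, 55.8% for Areg, 82.5% for Il5 and 217% for Arg1.

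**Figure D1:**
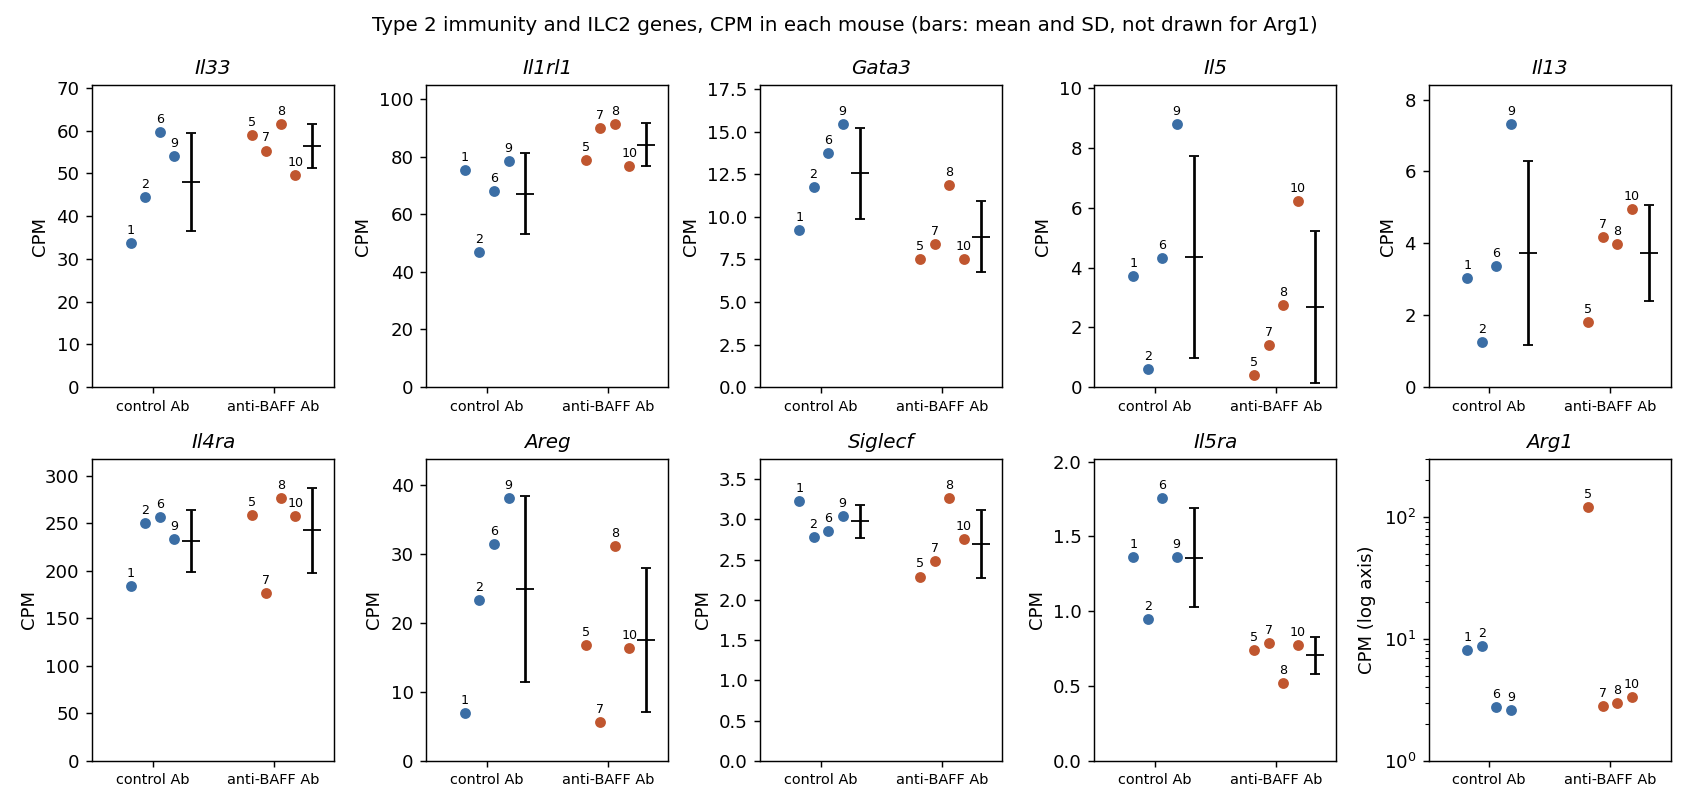
CPM (y axis, from 0, except a log axis for Arg1) of the 10 genes in 4 control Ab-treated and 4 anti-BAFF Ab-treated mice, each point a mouse labelled by its number, with bars for the mean and SD of each group except for Arg1. Il5ra is the gene whose groups do not overlap, at 0.946 to 1.76 against 0.522 to 0.788 CPM, and Arg1 stands at 121 CPM in anti-BAFF Ab mouse 5.

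Between the groups none of the 10 genes passed edgeR's quasi-likelihood test once p-values were adjusted over all tested genes by Benjamini-Hochberg (threshold 0.05), and the lowest adjusted p among them was 1.00. Over all genes, 9 of 15963 (0.0564%) passed. At an unadjusted p under 0.05, 2 of the 10 passed, Il5ra and Gata3, and both were lower with anti-BAFF Ab. Over all genes that threshold took 1.9% in either direction and 1.24% as lower. A count of 2 of 10 is a larger share than these, and neither gene passed after adjustment. 5 members had a log2 fold change (anti-BAFF Ab over control Ab) above 0 and 5 below, with a median of -0.07 beside 0.004 over all tested genes. In a bulk SVF library, fewer cells of a type and less RNA per cell cannot be told apart, and this holds for every value below.

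**Figure D2:**
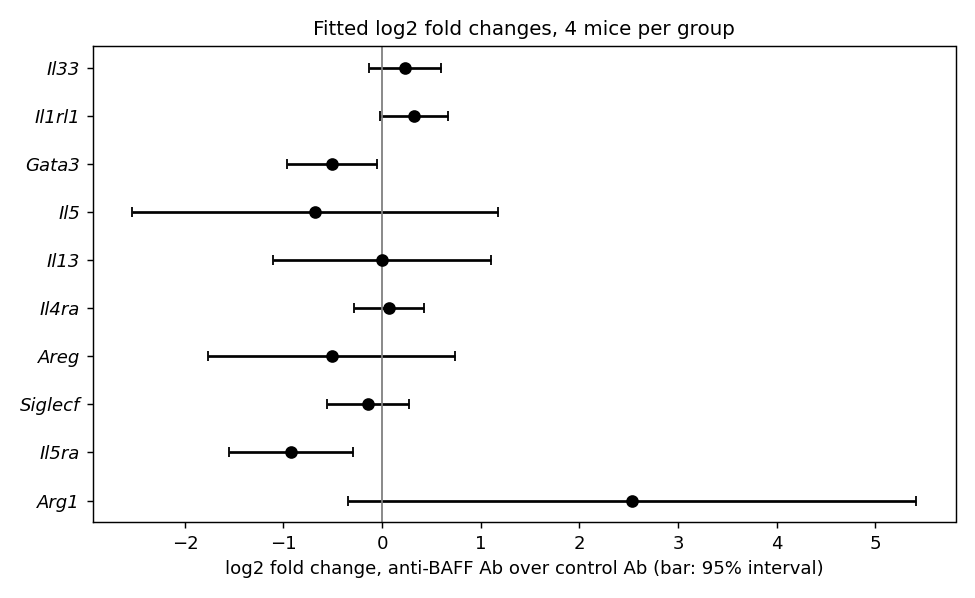
Log2 fold change of each of the 10 genes, anti-BAFF Ab over control Ab, from edgeR (x axis), with 4 mice per group and bars for the 95% interval. The intervals of Gata3 (-0.97 to -0.05) and Il5ra (-1.55 to -0.30) leave out 0, those of the other 8 genes hold it, and Arg1 has the widest, from -0.35 to 5.42.

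The alarmin and its receptor were both abundant. Il33 (ENSMUSG00000024810, mm10 chromosome 19, 29925114 to 29960718) had 33.7, 44.5, 59.8 and 54.0 CPM in control Ab mice 1, 2, 6 and 9 and 59.0, 55.3, 61.5 and 49.5 CPM in anti-BAFF Ab mice 5, 7, 8 and 10. The groups overlapped, with the lowest 2 of the 8 values in control Ab mice 1 and 2 and the highest in anti-BAFF Ab mouse 8. The means were 48.0 ± 11.4 and 56.3 ± 5.18 CPM (SD, n = 4 each), and the log2 fold change was 0.23 with an SE of 0.16 and a 95% interval of -0.14 to 0.60. Without control Ab mouse 1 it was 0.08. Il1rl1 (ENSMUSG00000026069, chromosome 1, 40429570 to 40465415) had 75.4, 46.9, 68.1 and 78.3 CPM with control Ab and 78.8, 89.9, 91.2 and 76.8 CPM with anti-BAFF Ab. 3 of the 4 anti-BAFF Ab-treated mice were above every control Ab-treated mouse, and mouse 10 fell under control Ab mouse 9, so the groups overlapped. The means were 67.2 ± 14.2 and 84.2 ± 7.40 CPM (SD, n = 4 each), and the log2 fold change was 0.33 with an SE of 0.15 and a 95% interval of -0.02 to 0.67. The unadjusted p of edgeR was 0.0620 for Il1rl1 and 0.189 for Il33. For Il1rl1 it was 0.0349 without control Ab mouse 9, and without the 2 libraries high in epididymis genes the log2 fold change was 0.14.

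Il1rl1 ran with the mast cell markers. These summed to 1197, 608, 1010 and 949 CPM in control Ab mice 1, 2, 6 and 9 and to 1103, 1672, 1397 and 1127 CPM in anti-BAFF Ab mice 5, 7, 8 and 10. Control Ab mouse 2 was the lowest in both the markers and Il1rl1. Over the 8 mice the correlation of Il1rl1 with this sum, on a log2(CPM + 1) scale, was r = 0.93 (exact permutation p = 0.00243) and rho = 0.69 (exact permutation p = 0.0694). It was r = 0.88 after each group was centred on its own mean and r = 0.71 without control Ab mouse 2 and anti-BAFF Ab mouse 7, the 2 libraries farthest from the median of the marker sum and also the 2 high in epididymis genes. This was 1 of 120 relations between a member and a marker list, all chosen after the values were seen, and none passed adjustment over the 120 (lowest adjusted permutation p = 0.237). All 10 mast cell markers had a log2 fold change above 0, between 0.35 and 0.58, and 4 of the 10 passed an unadjusted p of 0.05 as higher, a threshold that 0.664% of all genes passed in that direction. This count was 1 without anti-BAFF Ab mouse 7, 1 without anti-BAFF Ab mouse 8 and 6 without control Ab mouse 1 or without anti-BAFF Ab mouse 10. Kit passed in each of the fits that left out a mouse. The share of all genes past that p was not taken for these fits. Kit, the stem cell factor receptor of mast cells, had 65.1, 47.2, 62.4 and 63.7 CPM against 74.2, 85.2, 78.0 and 74.2 CPM, with no overlap (log2 fold change 0.39, SE 0.11). Groups without overlap, in either direction, were seen for 1.48% of all tested genes. The part of mast cell RNA in the Il1rl1 difference was not tested.

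Gata3, Il5 and Il13 were low and varied from mouse to mouse. Gata3 (ENSMUSG00000015619, chromosome 2, 9857078 to 9890034), the transcription factor of ILC2s and T helper 2 cells, had 9.24, 11.8, 13.8 and 15.4 CPM with control Ab and 7.54, 8.39, 11.9 and 7.5 CPM with anti-BAFF Ab. Anti-BAFF Ab mice 5, 7 and 10 were below every control Ab-treated mouse, and mouse 8 lay inside the control range, so the groups overlapped. The means were 12.5 ± 2.66 and 8.83 ± 2.07 CPM (SD, n = 4 each), and the log2 fold change was -0.51 with an SE of 0.20 and a 95% interval of -0.97 to -0.05. The unadjusted p of edgeR was 0.0340 and the exact two-sided permutation p was 0.0857. The unadjusted p was above 0.05 when control Ab mouse 6 (0.0803), control Ab mouse 9 (0.102), anti-BAFF Ab mouse 5 (0.0791), mouse 7 (0.0676) or mouse 10 (0.0884) was left out, and 0.0844 without the 2 libraries high in epididymis genes. T cell markers are also carried by cells that use GATA3. They summed to 28.3 to 48.8 CPM with control Ab and to 23.2 to 41.1 CPM with anti-BAFF Ab, with overlap. On the log2(CPM + 1) scale Gata3 had r = -0.05 with them over the 8 mice. Gata3 had r = 0.58 with the regulatory T cell markers (r = 0.63 after centring each group). For the B cell markers it was r = 0.63 (r = 0.07 after centring each group). With mesothelial markers Gata3 had r = 0.62 (r = 0.75 after centring each group). With adipose progenitor markers it had r = 0.47 (r = 0.76 after centring each group). None of these relations passed adjustment over the 120. The part of any of these cell types in the Gata3 values was not tested.

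Il5 (ENSMUSG00000036117, chromosome 11, 53720794 to 53725106) had 3.72, 0.591, 4.32 and 8.80 CPM in control Ab mice 1, 2, 6 and 9 and 0.404, 1.41, 2.74 and 6.23 CPM in anti-BAFF Ab mice 5, 7, 8 and 10. The range within each group was far wider than the distance between the groups, and the highest mouse was 21.8-fold above the lowest. The means were 4.36 ± 3.38 and 2.70 ± 2.54 CPM (SD, n = 4 each), and the log2 fold change was -0.68 with an SE of 0.82 and a 95% interval of -2.54 to 1.18. It was -0.08 without control Ab mouse 9 and -1.51 without anti-BAFF Ab mouse 10. Il13 (ENSMUSG00000020383, chromosome 11, 53631324 to 53634702) had 3.04, 1.24, 3.37 and 7.31 CPM with control Ab and 1.82, 4.17, 3.98 and 4.96 CPM with anti-BAFF Ab. The groups overlapped, and control Ab mouse 9 was the highest for both cytokines. The Il13 means were 3.74 ± 2.56 and 3.73 ± 1.35 CPM (SD, n = 4 each), with a 95% interval of the log2 fold change from -1.11 to 1.11, so that a change of 2-fold in either direction lies within the error of this gene.

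Il5 and Il13 lie on opposite strands of chromosome 11, with 86091 bases between the start of Il13 and the start of Il5. They belong to the type 2 cytokine cluster that T helper 2 cells and ILC2s open together. Mice with much Il5 also had much Il13. Over the 8 mice the correlation of their log2 CPM was r = 0.86 (exact permutation p = 0.00660) and rho = 0.76 (exact permutation p = 0.0368). It was r = 0.92 after each group was centred on its own mean. It was r = 0.56 without control Ab mouse 2 and anti-BAFF Ab mouse 5, which had the lowest Il5, so that the strength of the relation rests in part on these. Among all 45 pairs of the 10 genes the adjusted permutation p of this pair was 0.297 for r, and no pair passed the adjustment. The ratio of Il5 to Il13 in CPM was 1.22, 0.476, 1.28 and 1.20 in control Ab mice 1, 2, 6 and 9 and 0.222, 0.338, 0.689 and 1.26 in anti-BAFF Ab mice 5, 7, 8 and 10. The ratios overlapped, with the lowest 2 in anti-BAFF Ab-treated mice. With Il5 at 6 to 142 counts per mouse, the counting error of the lowest mice is large.

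The cytokine receptor chain Il4ra (ENSMUSG00000030748, chromosome 7, 125552120 to 125579474), through which both IL-4 and IL-13 signal, had 184, 251, 257 and 233 CPM with control Ab and 259, 177, 277 and 258 CPM with anti-BAFF Ab. The lowest mouse and the highest mouse were both anti-BAFF Ab-treated, and the groups overlapped. The means were 231 ± 32.9 and 242 ± 44.6 CPM (SD, n = 4 each), and the 95% interval of the log2 fold change ran from -0.29 to 0.42. Areg (ENSMUSG00000029378, chromosome 5, 91139599 to 91148432) had 6.89, 23.3, 31.4 and 38.0 CPM with control Ab and 16.8, 5.69, 31.1 and 16.3 CPM with anti-BAFF Ab. The groups overlapped over most of their range, with the lowest value in anti-BAFF Ab mouse 7 and the highest in control Ab mouse 9. The means were 24.9 ± 13.4 and 17.5 ± 10.4 CPM (SD, n = 4 each), and the log2 fold change was -0.51 with an SE of 0.56 and a 95% interval of -1.76 to 0.74.

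Areg ran with the markers of several stromal cell types, among them the mesothelium, the cell layer that covers the fat pad. The mesothelial markers summed to 244.5, 637, 535 and 718 CPM in control Ab mice 1, 2, 6 and 9 and to 418, 387, 566 and 494 CPM in anti-BAFF Ab mice 5, 7, 8 and 10. Control Ab mouse 1, low in Areg, was the lowest, and control Ab mouse 9, the highest in Areg, was the highest. On the log2(CPM + 1) scale the correlation was r = 0.85 (exact permutation p = 0.00464) and rho = 0.86 (exact permutation p = 0.0107), r = 0.86 after centring each group, and r = 0.80 without these 2 mice. With the endothelial markers Areg had r = 0.85 (rho = 0.64, and r = 0.49 without control Ab mouse 1 and anti-BAFF Ab mouse 7), and with the adipose progenitor markers r = 0.81 (rho = 0.71, and r = 0.54 without the same mice). Immediate early genes (r = 0.77) and large peritoneal macrophage markers (r = 0.74) followed, and none of these relations passed adjustment over the 120. Such relations were not particular to Areg. Il4ra had r = 0.85 with the large peritoneal macrophage markers (rho = 0.71, and r = 0.96 without control Ab mice 1 and 2). With the endothelial markers Il4ra had r = 0.80 (rho = 0.57, and r = 0.10 without control Ab mouse 1 and anti-BAFF Ab mouse 7). These did not pass adjustment either. Without control Ab mouse 1 the log2 fold change of Areg was -0.84. In that fit 5 of the 6 mesothelial markers passed an unadjusted p of 0.05 as lower, where none did with all mice. The share of all genes past that p without this mouse was not taken, so this count has no background beside it. The regulatory T cell markers, from another known source of amphiregulin, summed to 26.2 to 34.1 CPM with control Ab and to 23.5 to 36.1 CPM with anti-BAFF Ab. The part of any of these cell types in the Areg values was not tested.

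Both genes that mark eosinophils had a log2 fold change below 0. Over the 8 mice their log2 CPM had r = 0.23 (exact permutation p = 0.577), and r = -0.34 after each group was centred on its own mean. Siglecf (ENSMUSG00000039013, chromosome 7, 43351341 to 43359531), a sialic acid-binding lectin of eosinophils, had 3.23, 2.78, 2.85 and 3.04 CPM with control Ab and 2.29, 2.48, 3.26 and 2.76 CPM with anti-BAFF Ab. The groups overlapped, with the lowest 3 of the 8 values in anti-BAFF Ab-treated mice. The means were 2.97 ± 0.20 and 2.70 ± 0.424 CPM (SD, n = 4 each), and the log2 fold change was -0.14 with an SE of 0.18 and a 95% interval of -0.56 to 0.27. Il5ra (ENSMUSG00000005364, chromosome 6, 106710357 to 106749037), the chain that binds IL-5, had 1.36, 0.946, 1.76 and 1.36 CPM in control Ab mice 1, 2, 6 and 9 and 0.741, 0.788, 0.522 and 0.772 CPM in anti-BAFF Ab mice 5, 7, 8 and 10. Every anti-BAFF Ab-treated mouse was below every control Ab-treated mouse, which 1.48% of all tested genes showed in either direction, and the counts behind the values were 8 to 24 per mouse. The means were 1.36 ± 0.331 and 0.706 ± 0.124 CPM (SD, n = 4 each), and the log2 fold change was -0.93 with an SE of 0.28 and a 95% interval of -1.55 to -0.30. The unadjusted p of edgeR was 0.00865 with an adjusted p of 1.00. The exact two-sided permutation p was 0.0286, the smallest that 4 mice against 4 can give. The log2 fold change lay between -1.07 and -0.78 when each mouse was left out in turn.

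Il5ra, which B1 cells carry as well as eosinophils, had its lower values in the same group as the B cell markers. These summed to 34.9, 39.7, 36.8 and 33.6 CPM with control Ab and to 22.1, 10.3, 15.7 and 9.54 CPM with anti-BAFF Ab, all 5 markers were below 0 in log2 fold change, from -1.77 to -0.68, and all 5 passed an unadjusted p of 0.05. The mice split by group in both measures. Over the pooled 8 the correlation on the log2(CPM + 1) scale was r = 0.70 (exact permutation p = 0.0555). The rank correlation was rho = 0.67 (exact permutation p = 0.0831). After each group was centred on its own mean it was r = -0.25, and the relation did not pass adjustment over the 120. Among the anti-BAFF Ab-treated mice, mouse 5 had the most B cell marker counts and an Il5ra level between those of the other 3. The eosinophil list summed to 56.8 to 70.1 CPM with control Ab and to 42.1 to 58.4 CPM with anti-BAFF Ab, with overlap. These sums rest mainly on Ear2 (24.8 to 48.6 CPM over all mice) and Alox15 (4.67 to 26.5 CPM), not on the granule genes Epx, Ear6 and Prg2. None of the 5 tested genes of the list passed an unadjusted p of 0.05. The part of B cells or eosinophils in the Il5ra difference was not tested.

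**Figure D3:**
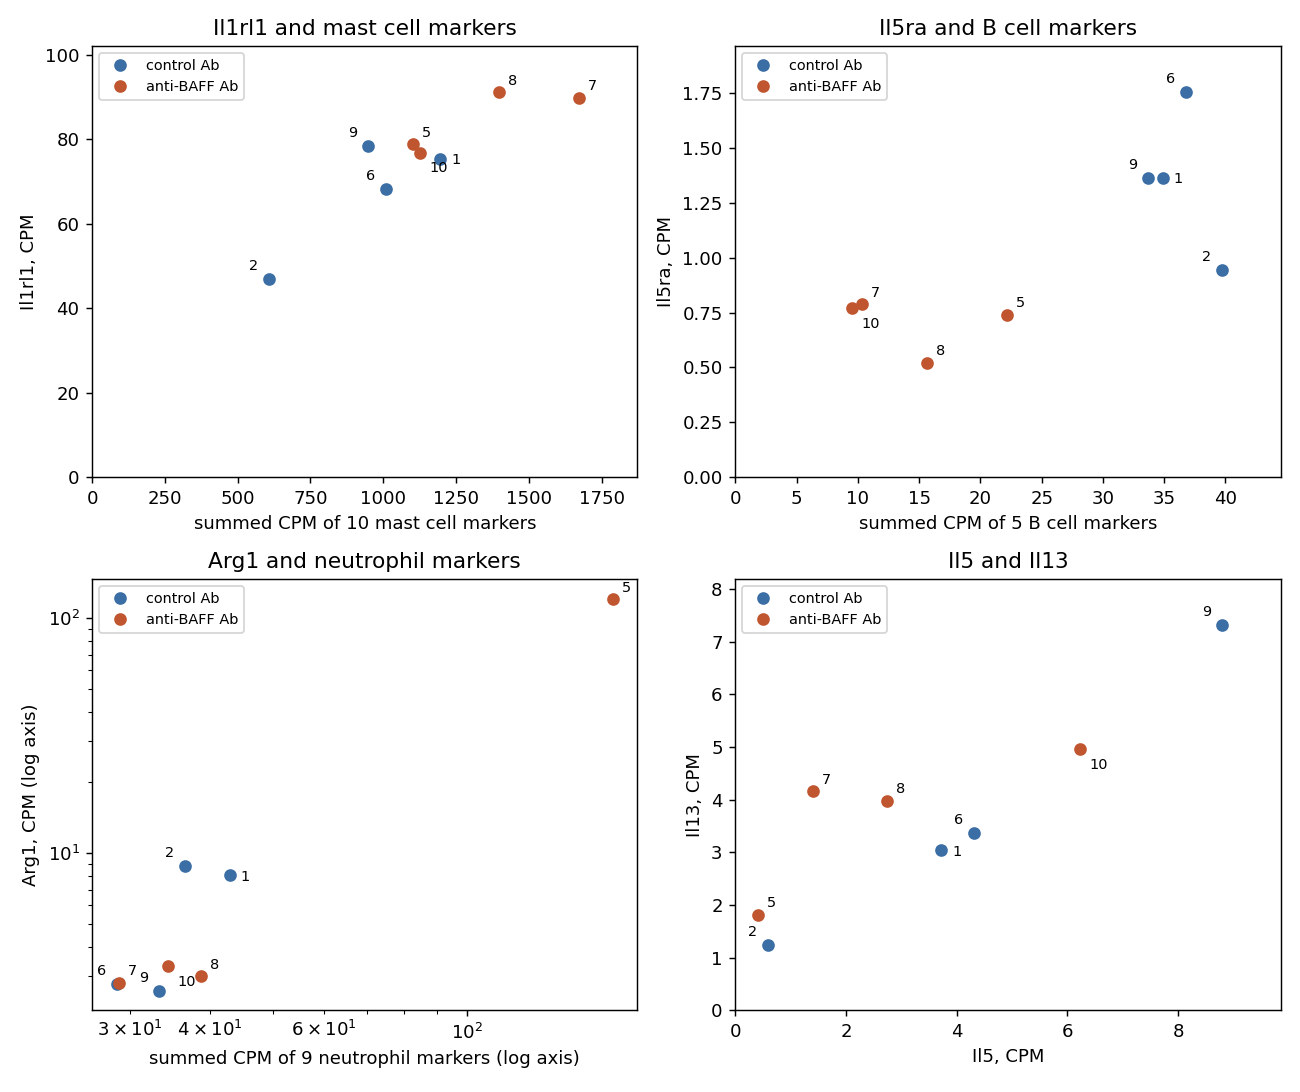
CPM of Il1rl1, Il5ra and Arg1 (y axes) against the summed CPM of mast cell, B cell and neutrophil markers (x axes), and of Il13 against Il5, each point a mouse labelled by its number and coloured by group, with log axes for Arg1 and the neutrophil markers and linear axes otherwise. Anti-BAFF Ab mouse 5 stands alone at 121 CPM of Arg1 and 168 CPM of neutrophil markers, and the groups separate along both axes for Il5ra and the B cell markers.

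Arg1 (ENSMUSG00000019987, chromosome 10, 24915221 to 24927484), which splits arginine into ornithine and urea, had 8.06, 8.81, 2.78 and 2.60 CPM in control Ab mice 1, 2, 6 and 9 and 121, 2.82, 3.0 and 3.31 CPM in anti-BAFF Ab mice 5, 7, 8 and 10. Mouse 5 was 13.7-fold above the next mouse, and the other 3 anti-BAFF Ab-treated mice lay within the control range. The means were 5.56 ± 3.33 and 32.5 ± 58.9 CPM (SD, n = 4 each), and the log2 fold change was 2.53 with an SE of 1.28 and a 95% interval of -0.35 to 5.42. Without mouse 5 the anti-BAFF Ab mean was 3.04 ± 0.250 CPM (SD, n = 3) and the log2 fold change turned to -0.88. The same mouse held the neutrophil signal: S100a9, a calcium-binding protein of neutrophils, had 42.3 CPM there and 1.18 to 4.34 CPM in the others, and the chemokine receptor Cxcr2 had 8.68 CPM there and 0.196 to 0.938 CPM in the others. The correlation of Arg1 with the neutrophil markers over the 8 mice was r = 0.97 (exact permutation p = 0.00791) and rho = 0.81 (exact permutation p = 0.0218). Without mouse 5 alone it was r = 0.66 and rho = 0.71, without any other single mouse r stayed at 0.97 or above, and without control Ab mouse 6 and anti-BAFF Ab mouse 5 it was r = 0.63. The part of neutrophils in the Arg1 value of mouse 5 was not tested.

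The other genes of the circuit were read through lists. Beside their counts, 1.24% of all tested genes passed an unadjusted p of 0.05 as lower and 0.664% as higher. Of the 11 genes of IL-33 receptor signalling all were tested and none passed an unadjusted p of 0.05, with a median log2 fold change of 0.06. Of the 6 cytokine genes that belong to type 2 immunity or start it, 3 were tested and none passed, while Il9 had 0 counts in all mice, Il25 at most 1 and Il3 at most 3. Il4, the founding type 2 cytokine, had 1.80, 0.946, 1.54 and 1.98 CPM with control Ab and 2.36, 1.46, 2.15 and 1.60 CPM with anti-BAFF Ab. These groups overlapped, and the log2 fold change of Il4 was 0.27. The list of 14 receptor chains, JAKs and STATs around IL-4, IL-13 and IL-5 also holds the specific chains of the receptors for IL-9 (Il9r) and TSLP (Crlf2). Of its 13 tested genes 1 passed as lower, Il9r, and none of the chains, JAKs and STATs that carry IL-4, IL-13 or IL-5 signals did, apart from Il5ra, which was counted above. Il9r had 1.80, 2.07, 2.27 and 2.29 CPM with control Ab and 0.875, 1.01, 1.17 and 0.938 CPM with anti-BAFF Ab. Each anti-BAFF Ab-treated mouse was lower than each control Ab-treated mouse, a separation that 1.48% of all tested genes showed in either direction. The log2 fold change was -1.07, with an SE of 0.21 and a Benjamini-Hochberg adjusted p of 0.322 from the edgeR fit.

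Of the 12 ILC2 genes 10 were tested, with a median log2 fold change of -0.04, and 1 passed an unadjusted p of 0.05 as higher. This was Tph1, the peripheral enzyme of serotonin synthesis, which mast cells also carry, with 17.6, 6.44, 15.3 and 12.8 CPM against 22.3, 30.3, 25.0 and 15.4 CPM (log2 fold change 0.84, SE 0.30). The unadjusted p of edgeR was 0.0217, but 0.0693 without anti-BAFF Ab mouse 7, 0.0519 without anti-BAFF Ab mouse 8 and 0.0691 without the 2 libraries high in epididymis genes, where the log2 fold change was 0.44. As for the mast cell markers, control Ab mouse 2 was the lowest in Tph1 and anti-BAFF Ab mouse 7 the highest. Il17rb, the receptor chain for IL-25, was the next in the order of p, with a log2 fold change of -0.83 and an unadjusted p of 0.0854 in edgeR. Of the 6 genes of the list of chemokines that draw type 2 cells, which also holds the chemokine receptor Ccr4, none passed. Ccl11, the eosinophil chemokine eotaxin, had 234 ± 78.6 CPM with control Ab and 246 ± 80.0 CPM with anti-BAFF Ab (SD, n = 4 each).

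Among the 12 macrophage genes that IL-4 or IL-13 induces, 3 passed an unadjusted p of 0.05 and all 3 were lower with anti-BAFF Ab. Over all tested genes 1.24% passed that threshold as lower. Mgl2, a C-type lectin of macrophages and dendritic cells, had 51.7, 52.8, 50.6 and 68.2 CPM with control Ab and 33.1, 24.7, 44.6 and 45.4 CPM with anti-BAFF Ab. The groups did not overlap, as for 1.48% of all tested genes in either direction, and the log2 fold change of Mgl2 was -0.60 with an SE of 0.19. Retnla, the secreted protein RELMα, had 291, 272, 371 and 735 CPM with control Ab and 188, 127, 236 and 354 CPM with anti-BAFF Ab. These overlapped through anti-BAFF Ab mouse 10, and the log2 fold change was -0.88 with an SE of 0.38. Without control Ab mouse 9 it was -0.46, and the unadjusted p of edgeR, 0.0456 with all mice, was above 0.05 when control Ab mouse 6 or 9 or anti-BAFF Ab mouse 5, 7 or 8 was left out. Fcer2a, the low-affinity IgE receptor CD23, which B cells also carry, had 1.68 to 2.79 CPM with control Ab and 0 to 0.673 CPM with anti-BAFF Ab, in parallel with the B cell markers. The whole list had a median log2 fold change of -0.12, and the macrophage markers summed to 4749 to 5364 CPM with control Ab and to 4260 to 5573 CPM with anti-BAFF Ab, with overlap. The count of 3 lower genes was 5 without control Ab mouse 1 and 2 or 3 without any other mouse, and the share of all genes in these fits was not taken. No gene of the list passed an adjusted p of 0.05 in edgeR, while DESeq2 called Fcer2a (log2 fold change -2.96, adjusted p = 0.00119).

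The partners of Arg1 and Areg gave 1 further gene. None of the 8 genes of arginine metabolism passed an unadjusted p of 0.05: Arg2, the mitochondrial arginase, had a log2 fold change of 0.36 and Nos2, which uses the same substrate to make nitric oxide, of 0.27. The list of 11 EGF receptor family members and ligands also counts the protease Adam17. Of its genes 9 were tested and 1 passed, the ligand epiregulin (Ereg). Ereg had 6.51, 5.67, 10.2 and 7.68 CPM with control Ab and 13.1, 10.8, 17.4 and 11.1 CPM with anti-BAFF Ab. Every anti-BAFF Ab-treated mouse was above every control Ab-treated mouse, with a log2 fold change of 0.80 and an SE of 0.22. Such a separation, in either direction, was seen for 1.48% of all tested genes. Areg, its neighbour in the ligand family, had its higher mean with control Ab, while Hbegf, the heparin-binding ligand, had a log2 fold change of 0.01. Of the other cell types the SVF could hold, the tested markers of adipose progenitors (7), macrophages (6), large peritoneal macrophages (5), endothelium (5), mesothelium (6), T cells (7) and regulatory T cells (6) and the 8 immediate early genes gave none past an unadjusted p of 0.05, nor did the 4 tested epididymis markers. Of the 5 tested neutrophil markers 1 passed as higher, S100a9, through mouse 5. All 8 immediate early genes, which tissue digestion is known to raise, were below 0 in log2 fold change, with a median of -0.22 and sums of 9069 to 14825 CPM with control Ab and 9189 to 13616 CPM with anti-BAFF Ab. In none of the 21 lists did a gene pass an adjusted p of 0.05 in edgeR; DESeq2 called 4 of the 5 B cell markers and Fcer2a.

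**Figure D4:**
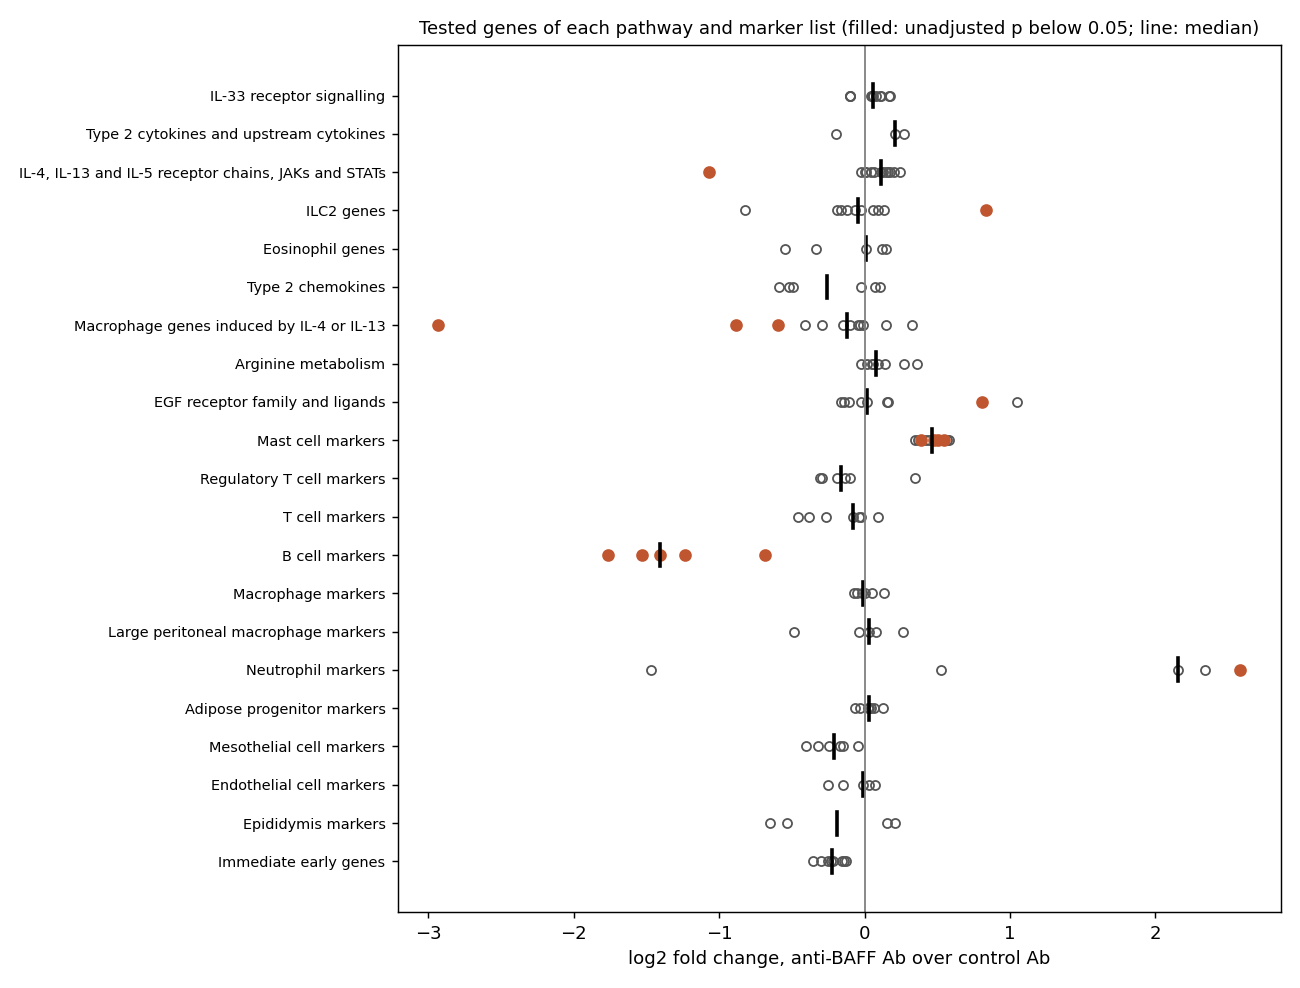
Log2 fold change, anti-BAFF Ab over control Ab, of each tested gene of the pathway and marker lists (y axis), filled where the unadjusted p of edgeR is under 0.05, with a line at the median of each list. The 5 B cell markers lie between -1.77 and -0.68, the 10 mast cell markers between 0.35 and 0.58, and the medians of the 9 pathway lists between -0.26 and 0.21.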

How the data were processed

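The authors sequenced the SVF RNA of 8 mice as paired-end libraries and deposited raw counts per gene, with a gene length column (an other value, in bases) that was used here for FPKM. The build was mm10 per the submitters' processing notes; the aligner, counter and annotation are not given in the sources used here. The mice were separate animals and their numbers were not shared between the groups. No 2 libraries of a group were repeats (smallest chi-square per degree of freedom 7.65).

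The test between groups was that of edgeR 4.0.16 (R 4.3.3), after filterByExpr at a minimum count of 10 and TMM scaling, as a quasi-likelihood fit holding treatment as the only term and Benjamini-Hochberg adjustment over 15963 genes. DESeq2 1.42.0 and limma 3.58.1 on log2(FPKM + 1) served as alternatives. CPM used TMM-scaled library sizes. Exact permutation tests were two-sided, over all orders of the mice, in R or in Python 3.11.15 with scipy 1.17.1; correlations between members used log2 CPM with a prior count of 2. The scripts were tested on simulated data. Promoter windows came from RefSeq (GRCm38.p6). The columns of the table held no samples other than these 8.

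All 10 members were named. From 9 pathway lists and 12 marker lists, the rule named genes past an adjusted p of 0.05, the 2 with the smallest p and the most abundant by FPKM; the text gives a selection. Members and lists were chosen with earlier results of these data known. Relations of members with marker sums, and the counts of lists without single libraries or in DESeq2, were added after the values were seen. Counting limits cover counting error only.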

Additional observations from a re-analysis of the deposited data

Results flagged for a closer look

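4 values stood apart from the other mice of their group by the ratio of the gap to the range, which takes about 1 in 20 groups by chance; 62 groups of 4 mice were looked at, so that 3.1 would be expected. Arg1 was high in anti-BAFF Ab mouse 5, at 121 CPM against 2.82 to 3.31 CPM in the rest of that group. The neutrophil markers were high in the same mouse, at 168 CPM. The summed type 2 cytokines and upstream cytokines were high in control Ab mouse 9, at 8.61 CPM, the mouse that also had the most Il5, Il13 and Areg. The list of the EGF receptor family and its ligands, with the protease Adam17, was low in control Ab mouse 1, at 442 CPM. Adam17 itself was at 184 CPM there, the highest of the 8 mice. This mouse had the lowest Il33 of all 8.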

How the results depend on the processing

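No member passed an adjusted p of 0.05 under any alternative tried, with a lowest adjusted p of 0.346 (Gata3 without control Ab mouse 1, edgeR). Members past an unadjusted p of 0.05 were 2 (Gata3 and Il5ra), and 3 without a filter on low counts (Arg1, Gata3 and Il5ra). They were 1 with at least 10 counts in every mouse (Gata3, with 8 members tested). The count was also 1 without the 2 libraries high in epididymis genes (Il5ra), and 1 to 3 when each mouse was left out. Arg1 was among them without anti-BAFF Ab mouse 7, 8 or 10, fits that all kept anti-BAFF Ab mouse 5. Over all genes 9 passed the adjusted threshold, and 19 did without a filter on low counts, 70 in DESeq2, 2 with edgeR's robust option, 3 without the 2 libraries high in epididymis genes and 2 to 9 when each mouse was left out. Il13, at 0.0014 in log2 fold change, turned negative with RLE size factors (log2 fold change -0.0090), upper quartile scaling (-0.026), library size only (-0.014), no filter (-0.015), at least 10 counts in every mouse (-0.016), DESeq2 (-0.0068) and without the 2 libraries high in epididymis genes (-0.37); the cause was not tested. When each mouse was left out, Il13 ranged from -0.29 to 0.56, Il4ra from -0.044 to 0.18 and Arg1 from -0.88 to 2.91, with Arg1 negative only without anti-BAFF Ab mouse 5, and no other member changed direction. The Il5 with Il13 correlation ranged from 0.80 to 0.92. Of the 108 member values under the other alternatives 100 were labelled the same and 7 lay on the other side of 0. The remaining 1 was Il5ra, whose exact permutation p of 0.0286 fell under 0.05 without adjustment. No paired analysis was possible because the groups share no mouse numbers. Counts were low for Il5ra (8 to 24 per mouse) and Il5 (6 to 142), and the part of counting error in the width of their intervals was not tested.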
